A study of Mus musculus with 4 samples.

Results

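The genes described here encode subunits of the oxidative phosphorylation machinery of mitochondria. They were chosen by gene symbol alone, as the symbols that begin with Nduf followed by a, b, c, s or v, with Uqcr, with Cox4 to Cox8 or with Atp5, together with Sdha, Sdhb, Sdhc and Sdhd. The rule found 77 of the 18091 gene symbols on the array. Of these, 34 belong by symbol to complex I, 3 to complex II, 6 to complex III, 16 to complex IV and 14 to complex V. A further 4 carry such a symbol without being subunits, namely the complex I assembly factor Ndufaf1, Cox4nb, Atp5s and Atp5sl. Among those counted by symbol, Ndufa4 is known as a subunit of complex IV, and Cox7a2l as a factor that joins complexes into supercomplexes. Subunits encoded by mitochondrial DNA do not carry these symbols, and Sdha was not analysed here.

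Complexes I to IV form the electron transport chain of the inner mitochondrial membrane. Complex I (NADH dehydrogenase) and complex II (succinate dehydrogenase) pass electrons to ubiquinone, complex III passes them to cytochrome c, and complex IV (cytochrome c oxidase) hands them to oxygen. Complex V (ATP synthase) uses the proton gradient built by complexes I, III and IV to make ATP. In pancreatic beta cells, ATP made in this way couples glucose metabolism to insulin secretion.

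Insulinomas came from RT2 mice, in which the insulin promoter drives an SV40 T antigen transgene in beta cells. The sEphB4-Alb group received the soluble extracellular domain of the receptor EphB4 fused to albumin, at 10 mg/kg, and the PBS group received the vehicle. All mice carried the RT2 transgene and 2 intact Dll4 alleles, and were injected intraperitoneally 3 times weekly from 10 weeks of age until tumors were taken at 13.5 weeks. The CD1 and C57/BL6 backgrounds are both named in the labels, whereas the design text names C57/BL6. Each group had 6 mice, of which 2 tumors per group were profiled on 1 array each, and the labels do not tie a tumor to a mouse. The p-values therefore measure the spread between these tumors, and the smallest exact two-sided permutation p for 2 against 2 arrays is 0.33.

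The deposited signals were brighter on the sEphB4-Alb arrays, with medians of 159.9 and 168.7, against 135.5 and 141.6 on the PBS arrays. Signals were therefore corrected for background, quantile normalized, which gives each array the same distribution, and put on the log2 scale. A gene was called above background where its signal exceeded the low end of the array's own distribution, and limma tested the 10626 genes that were so on the 2 arrays of either group. PBS tumor 1 correlated least with the other arrays over all genes. Of 10 beta-cell markers, 7 were tested and 3 of these were higher in sEphB4-Alb tumors at an unadjusted p under 0.05, as 3.78% of all genes were. The 3 were Ins1, Ins2 and Nkx6-1. Ins1 belongs to a list of genes that the study selected on these same arrays. Nkx6-1 was above background on both sEphB4-Alb arrays and 1 PBS array, so its difference is partly fixed by this filter. The transporter gene Slc2a2 and the prohormone convertase gene Pcsk1, both beta-cell markers, were above background on no array.

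Of the 77 genes, 71 were tested, and 66 were above background on all 4 arrays. Atp5k, Cox7b2, Cox8b, Cox8c and Ndufs1 were above background on no array, and Uqcrq on 1 PBS array. Cox6a2, Cox7b, Ndufb4 and Ndufb11 were above background on both sEphB4-Alb arrays and 1 PBS array, and Uqcrfs1 on 1 sEphB4-Alb array and both PBS arrays. These 5 genes passed the filter through the group in which they were brighter, so their differences are partly fixed by it.

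The upstream sequences of 4 of the genes described below, with a common form and a muscle isoform of complex IV among them, are shown because binding motifs of NRF1, ETS factors and YY1 are known from promoters of respiratory chain genes. They are the 250 bases before the annotated start, 5′ to 3′ on the gene's strand, from RefSeq on build GRCm38.p6, and capitals mark a match to the ETS motif CCGGAAG on either strand. Cox7a1 (chr7:30183921-30184170, plus strand) is a muscle isoform of a complex IV subunit and Cox7a2 (chr9:79759854-79760103, minus strand) its common form. Sdhd (chr9:50603850-50604099, minus strand) and Atp5e (chr2:174464102-174464351, minus strand) belong to complexes II and V.
Cox7a1: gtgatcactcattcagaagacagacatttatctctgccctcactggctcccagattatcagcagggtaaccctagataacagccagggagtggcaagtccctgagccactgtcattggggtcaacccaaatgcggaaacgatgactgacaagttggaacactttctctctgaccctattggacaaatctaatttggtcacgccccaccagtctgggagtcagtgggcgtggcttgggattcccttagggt
Cox7a2: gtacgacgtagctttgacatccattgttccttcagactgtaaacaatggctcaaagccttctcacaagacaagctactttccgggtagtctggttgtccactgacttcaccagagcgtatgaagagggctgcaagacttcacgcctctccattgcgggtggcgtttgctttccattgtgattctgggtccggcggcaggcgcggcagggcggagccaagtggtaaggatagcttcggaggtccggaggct
Sdhd: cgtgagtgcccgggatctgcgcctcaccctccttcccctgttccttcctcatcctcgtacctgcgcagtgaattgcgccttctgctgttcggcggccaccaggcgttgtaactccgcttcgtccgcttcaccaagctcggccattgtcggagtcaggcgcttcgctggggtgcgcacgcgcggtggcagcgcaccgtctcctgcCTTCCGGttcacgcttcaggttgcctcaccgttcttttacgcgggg
Atp5e: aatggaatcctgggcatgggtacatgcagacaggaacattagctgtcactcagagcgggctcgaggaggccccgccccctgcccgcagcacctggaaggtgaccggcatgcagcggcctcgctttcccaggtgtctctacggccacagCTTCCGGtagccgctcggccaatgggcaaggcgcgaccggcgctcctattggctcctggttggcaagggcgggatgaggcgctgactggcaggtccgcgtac

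No match to the 3 motifs lay in the windows of Cox7a1 and Cox7a2, and the windows of Sdhd and Atp5e each held the ETS motif, written above as its reverse complement CTTCCGG. At least 1 promoter window of 250 bases before to 50 after the start was at hand for 63 of the 77 genes. A gene with more than 1 window was counted once, as holding a motif if any of its windows did. The core NRF1 motif GCGCATGC was found for 14.3% of these genes, against 3.05% of 27025 genes with a promoter. CCGGAAG was found for 25.4%, against 9.93%, and the YY1 motif AAGATGG for 17.5%, against 7.28%, on either strand. At least 1 of the 3 motifs was found for 47.6% of the members with a promoter, against 18.6% of all such genes. By complex this was 13 of 30 genes for complex I, 2 of 2 for complex II and 3 of 4 for complex III. For complex IV it was 2 of 11, and for complex V 8 of 13. A match is a string of letters, not a shown binding site.

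The oxidative phosphorylation genes lay slightly higher in sEphB4-Alb tumors as a list, and few of them passed an unadjusted p of 0.05 in limma. The median log2 fold change of the 71 tested genes, sEphB4-Alb minus PBS, was 0.12 (range -0.40 to 1.12), against -0.015 over all genes tested. Of the 71, 52 were above 0, where 47.8% of all genes were. At an unadjusted p under 0.05 from limma, 5 were higher in sEphB4-Alb tumors and 0 lower, against a background of 3.78% higher and 2.74% lower among all genes. The 5 were Cox6a2, Cox7a1, Atp5a1, Atp5e and Sdhd. Of these, Cox6a2 was above background on 1 of the 2 PBS arrays, and among the 66 genes above background on every array 4 were higher, where 292 of 8742 genes were. Cox6a2 also passed 2-fold, as 0.988% of all genes did in this direction. After Benjamini-Hochberg adjustment over all genes 0 members passed 0.05, with adjusted p between 0.741 and 0.996 in limma.

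For 28 of the 71 genes the groups were apart, the lower sEphB4-Alb tumor being above the higher PBS tumor, where 18.5% of all genes were so. For 6 they were apart in the other direction, where 20.7% of all genes were so, and for 37 they overlapped. Without the 5 genes that were not above background on every array, 24 of 66 were apart and higher and 5 apart and lower. Among all genes under that filter, 1298 of 8742 were apart and higher and 2038 apart and lower. The levels of the 2 tumors of a group were close for these genes, with a median gap of 0.14 between sEphB4-Alb tumors and 0.15 between PBS tumors on the log2 scale. Over all genes these gaps were 0.16 and 0.28.

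The counts moved with the scaling and with single arrays. With median scaling, 17 members were higher at an unadjusted p under 0.05, and without normalization between arrays 37 were, whereas 854 and 1931 of all genes were. In these settings the median gene itself shifted by 0.25 and 0.58 on the log2 scale. Without PBS tumor 1, 9 of 71 members were higher, where 516 of 11230 genes were. Leaving out sEphB4-Alb tumor 1, or sEphB4-Alb tumor 2, left 2 of 71, where 225 of 11404 and 220 of 11146 genes were higher. Without PBS tumor 2, 6 of 72 members were higher and 5 lower, both smaller shares than over all genes, of which 1163 of 10921 were higher and 1371 lower. Without the moderation of limma, which steadies each gene's variance with those of all genes, 5 members were again higher, but Cox6a2, Cox7a1, Atp5a1 and Atp5e were not among them. The members' median relative to the median gene was 0.14, and 0.048 without PBS tumor 2.

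Cell markers also differed between the tumors. In bulk RNA, fewer cells of a type and less RNA per cell cannot be told apart. Summed marker levels add linear values, so the brightest genes of a list weigh most. The summed level of the 10 beta-cell markers, on the log2 scale, was 14.21 and 14.08 in sEphB4-Alb tumors, against 13.65 and 13.28 in PBS tumors. That of 9 acinar markers was 13.05 and 15.73 in sEphB4-Alb tumors and 10.74 and 13.56 in PBS tumors. That of 6 red blood cell markers was 11.52 and 12.41 in sEphB4-Alb tumors and 14.33 and 12.39 in PBS tumors. The beta-cell marker Ins2 alone read 13.80 and 13.73 in sEphB4-Alb tumors and 13.27 and 12.89 in PBS tumors. The red blood cell marker Hba-a1 alone read 11.29 and 12.28 in sEphB4-Alb tumors and 14.27 and 12.27 in PBS tumors. Summed beta-cell, smooth muscle, striated muscle and T cell markers were higher in both sEphB4-Alb tumors. The smooth muscle sums were 10.77 and 10.72, against 10.54 and 10.66 in PBS tumors. Of 5 smooth muscle markers tested, 3 were above 0 and 2 below, Des at -0.31 and Smtn at -0.23. Among the 3, Acta2 is in the list that the study selected on these arrays. Actg2 was above background on both sEphB4-Alb arrays and 1 PBS array. The 4 smooth muscle markers above background on every array had a median of -0.036. Of 10 striated muscle markers, 6 were above background on no array. Of 5 T cell markers tested, 4 were above 0 and 1 below, Lck at -0.20 with groups apart. Cd3e, Cd3g and Cd2, among the 4, were above background on both sEphB4-Alb arrays and 0 PBS arrays. Their differences are thus partly fixed by the filter. Cd3d, like Lck above background on all 4 arrays, was at 0.36 with overlapping groups. The acinar, macrophage, adipocyte, endothelial and red blood cell sums overlapped between the groups. Of the 8 macrophage markers, all above background on all 4 arrays, 7 had a log2 fold change above 0, 5 had groups apart and higher, and C1qb and C1qc, both complement genes, were higher at an unadjusted p under 0.05, with a list median of 0.35. Lyz2, another of them, read 11.55 and 11.35 in sEphB4-Alb tumors and 12.92 and 10.01 in PBS tumors. The part of cell makeup in the differences between the groups was not tested.

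**Figure D1:**
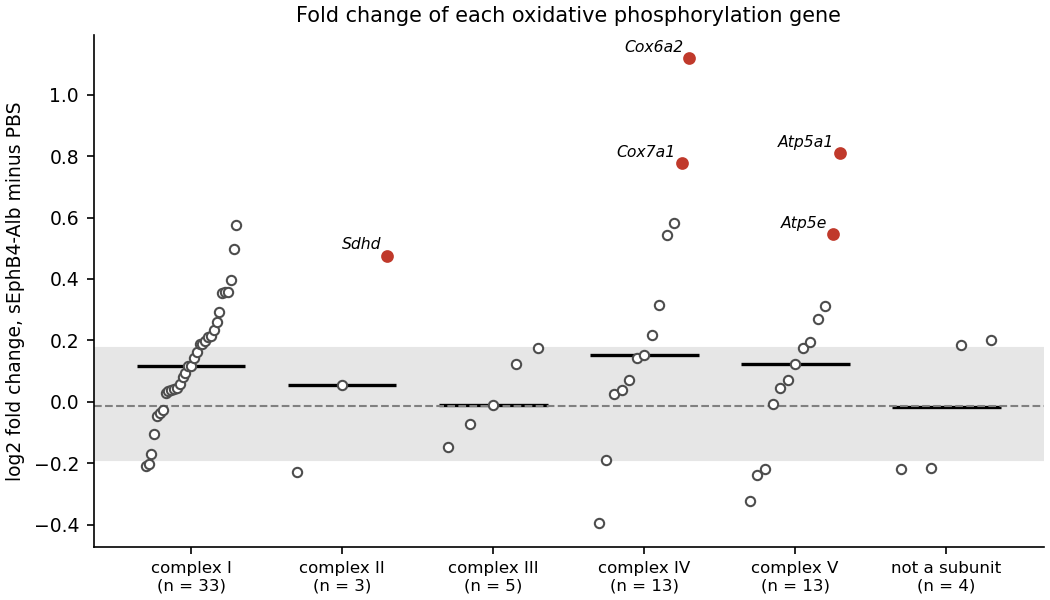
Log2 fold change of each tested gene, sEphB4-Alb minus PBS after quantile normalization, grouped by complex, with 1 point per gene and a bar at the median of each group. Filled points passed an unadjusted p of 0.05, the dashed line is the median of all genes tested, and the grey band runs from -0.19 to 0.18, their lower to upper quartile. The medians are 0.12, 0.053, -0.0095, 0.15 and 0.12 for complexes I to V, and the widest range, -0.40 to 1.12, is that of complex IV.

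Complex I, the entry point of NADH electrons, had 33 of 34 genes tested, and their median log2 fold change was 0.12 (range -0.21 to 0.57). Of these, 26 were above 0 and 7 below, where 47.8% of all genes were above 0. None of the 33, that is 0, passed an unadjusted p of 0.05 in limma. For 14 genes the groups were apart with sEphB4-Alb tumors higher, and for 3 lower, against 18.5% and 20.7% of all genes. Ndufb4 and Ndufb11, among the 14, passed the filter through the sEphB4-Alb arrays.

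Of the 26 accessory subunits, which surround the catalytic core, 23 had a log2 fold change above 0 and their median was 0.18. The 24 that were above background on all 4 arrays had a median of 0.14. Ndufb5, of the membrane arm, read 8.46 and 8.86 in sEphB4-Alb tumors and 7.85 and 8.32 in PBS tumors (normalized log2). The groups were separate, with a log2 fold change of 0.57 ± 0.25 (SE; 95% confidence interval -0.07 to 1.22). Ndufa12, at the matrix arm, read 12.08 and 12.23 in sEphB4-Alb tumors, against 11.97 and 11.35 in PBS tumors. Its log2 fold change was 0.50 ± 0.26 (SE), PBS tumor 2 was the lowest of the 4, and without that tumor the difference relative to the median gene was 0.21. Ndufa10 read 11.92 and 12.06 in sEphB4-Alb tumors and 11.60 and 11.59 in PBS tumors. Here the tumors of each group lay close together and the log2 fold change was 0.40 ± 0.16 (SE; 95% confidence interval -0.02 to 0.81).

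The core subunits of the N and Q modules carry electrons from NADH to ubiquinone. Of the 6 tested, 4 were below 0, and the median log2 fold change was -0.037. Ndufv1, which binds NADH and the flavin, read 12.43 and 12.39 in sEphB4-Alb tumors and 12.20 and 12.15 in PBS tumors, with a log2 fold change of 0.23 ± 0.15 (SE). Among these 6 core subunits it was the 1 whose groups were apart with the sEphB4-Alb tumors higher. Ndufs3, of the Q module, read 10.73 and 10.78 in sEphB4-Alb tumors and 10.84 and 11.08 in PBS tumors. With a log2 fold change of -0.21 ± 0.17 (SE) it was the lowest of complex I, followed by the acyl carrier protein Ndufab1 at -0.20 and the accessory subunit Ndufa6 at -0.17, each with groups apart. Ndufs7 and Ndufs8, further core subunits, had log2 fold changes of -0.047 and -0.027 with overlapping groups.

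Complex II oxidizes succinate and is shared with the TCA cycle. Sdhd, a membrane anchor at the ubiquinone site, read 7.63 and 7.76 in sEphB4-Alb tumors, against 7.26 and 7.17 in PBS tumors. The groups were apart, and the log2 fold change was 0.48 ± 0.16 (SE; 95% confidence interval 0.06 to 0.89; adjusted p = 0.741 in limma). Sdhc, the other anchor, read 9.97 and 9.41 in sEphB4-Alb tumors and 10.07 and 9.77 in PBS tumors, with a log2 fold change of -0.23 ± 0.25 (SE). Sdhb, the iron-sulfur subunit, read 9.33 and 9.46 in sEphB4-Alb tumors and 9.54 and 9.14 in PBS tumors, with a log2 fold change of 0.053 ± 0.20 (SE). Sdhd no longer passed an unadjusted p of 0.05 without sEphB4-Alb tumor 1, sEphB4-Alb tumor 2 or PBS tumor 2, at 0.53, 0.39 and 0.46 relative to the median gene. For Sdhb and Sdhc the groups overlapped, and the intervals, -0.47 to 0.58 for Sdhb and -0.89 to 0.43 for Sdhc, span 0. Without sEphB4-Alb tumor 2 Sdhc was 0.053 relative to the median gene, and without PBS tumor 2 Sdhb was -0.12.

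In complex III, which oxidizes ubiquinol, 5 of 6 genes were tested, with a median log2 fold change of -0.0095 (range -0.15 to 0.17). Uqcr, a small accessory subunit, read 13.27 and 13.41 in sEphB4-Alb tumors and 13.17 and 13.16 in PBS tumors. Uqcrc2, a core protein, read 13.28 and 13.16 in sEphB4-Alb tumors and 13.06 and 13.14 in PBS tumors. Both had groups apart, with log2 fold changes of 0.17 ± 0.16 and 0.12 ± 0.16 (SE). Uqcrfs1, the Rieske iron-sulfur protein, read 6.44 and 6.31 in sEphB4-Alb tumors and 6.60 and 6.46 in PBS tumors, close to background, with a log2 fold change of -0.15 ± 0.16 (SE). Uqcrc1 and Uqcrh, a core protein and the hinge protein, were at -0.0095 and -0.072 with overlapping groups.

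Complex IV held the widest spread of the 5 complexes, with Cox6a2 at 1.12 as its upper end and Cox7a1 next at 0.78. Several of its subunits exist as a common form and as a form known mainly from certain tissues. Among 13 tested genes of 16 the median log2 fold change was 0.15, with 11 above 0, and 2 genes passed an unadjusted p of 0.05. Of all genes, 47.8% were above 0 and 3.78% passed higher. The 2 were Cox6a2 and Cox7a1, both known as the isoforms of heart and skeletal muscle. Cox6a2 passed the filter through the sEphB4-Alb arrays, and Cox7a1 is in a list that the study selected on these arrays.

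Cox6a2 read 7.95 and 7.40 in sEphB4-Alb tumors and 6.28 and 6.83 in PBS tumors. Its means of 7.67 ± 0.39 and 6.56 ± 0.39 (SD, n = 2 each) gave a log2 fold change of 1.12 ± 0.29 (SE; 95% confidence interval 0.36 to 1.88), with an adjusted p of 0.741 in limma. The deposited signals were 332 and 276 on sEphB4-Alb arrays, against 126 and 156 on PBS arrays, of which PBS 1 was not above background, so the PBS level rests on 1 array above it. Without sEphB4-Alb tumor 1 the difference was 0.82 relative to the median gene and no longer passed an unadjusted p of 0.05.

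Its common form Cox6a1 read 13.52 and 13.38 in sEphB4-Alb tumors and 13.44 and 13.16 in PBS tumors. These values overlapped, with a log2 fold change of 0.15 ± 0.18 (SE; 95% confidence interval -0.32 to 0.62). Cox7a1 read 9.46 and 9.16 in sEphB4-Alb tumors, against 8.72 and 8.35 in PBS tumors. The groups were apart, and the log2 fold change was 0.78 ± 0.21 (SE; 95% confidence interval 0.22 to 1.33), or 1.71-fold, with an adjusted p of 0.741 in limma. Cox7a1 belongs to a list of genes that the study selected on these same arrays, so its direction is not independent evidence. Without sEphB4-Alb tumor 1 its difference relative to the median gene was 0.63 and no longer passed. Its common form Cox7a2 read 8.84 and 9.76 in sEphB4-Alb tumors and 8.80 and 8.64 in PBS tumors. Here sEphB4-Alb tumor 2 stood above the other 3, the log2 fold change was 0.58 ± 0.34 (SE), and without that tumor the difference relative to the median gene was 0.11.

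The other tissue isoforms gave values on either side of 0 or were not above background. Cox6b2, known from testis, read 7.75 and 7.83 in sEphB4-Alb tumors and 8.33 and 8.04 in PBS tumors, a log2 fold change of -0.40 ± 0.18 (SE; 95% confidence interval -0.86 to 0.07). It was the lowest of the 71 genes, whereas its common form Cox6b1 read 13.49 and 13.48 in sEphB4-Alb tumors and 13.34 and 13.19 in PBS tumors, a log2 fold change of 0.22 ± 0.16 (SE). Cox4i2, known from lung, read 9.15 and 8.75 in sEphB4-Alb tumors and 8.92 and 8.84 in PBS tumors. Its groups overlapped, and its common form Cox4i1, at 13.14 and 13.17 in sEphB4-Alb tumors and 12.99 and 13.04 in PBS tumors, had groups apart by a log2 fold change of 0.14 ± 0.15 (SE). Cox8b, the muscle isoform of a further subunit, and Cox8c and Cox7b2, known from testis, were above background on no array.

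The 8 common forms in complex IV had a median log2 fold change of 0.18, all 8 lay above 0, and 5 had groups apart. Of all genes, 47.8% lay above 0 and 18.5% were apart and higher. Cox7b, among the 5, passed the filter through the sEphB4-Alb arrays. The 7 above background on all 4 arrays had a median of 0.15. Cox5a and Cox5b were nearest to 0, at 0.039 ± 0.17 and 0.025 ± 0.16 (SE), and their sign turned when single tumors were left out. Cox7a2l, the supercomplex factor, read 9.85 and 9.39 in sEphB4-Alb tumors and 10.39 and 9.24 in PBS tumors. PBS tumor 1 was the highest of the 4 and PBS tumor 2 the lowest, and the log2 fold change was -0.19 ± 0.43 (SE), which became 0.42 relative to the median gene without PBS tumor 1 and 0.013 with median scaling.

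**Figure D2:**
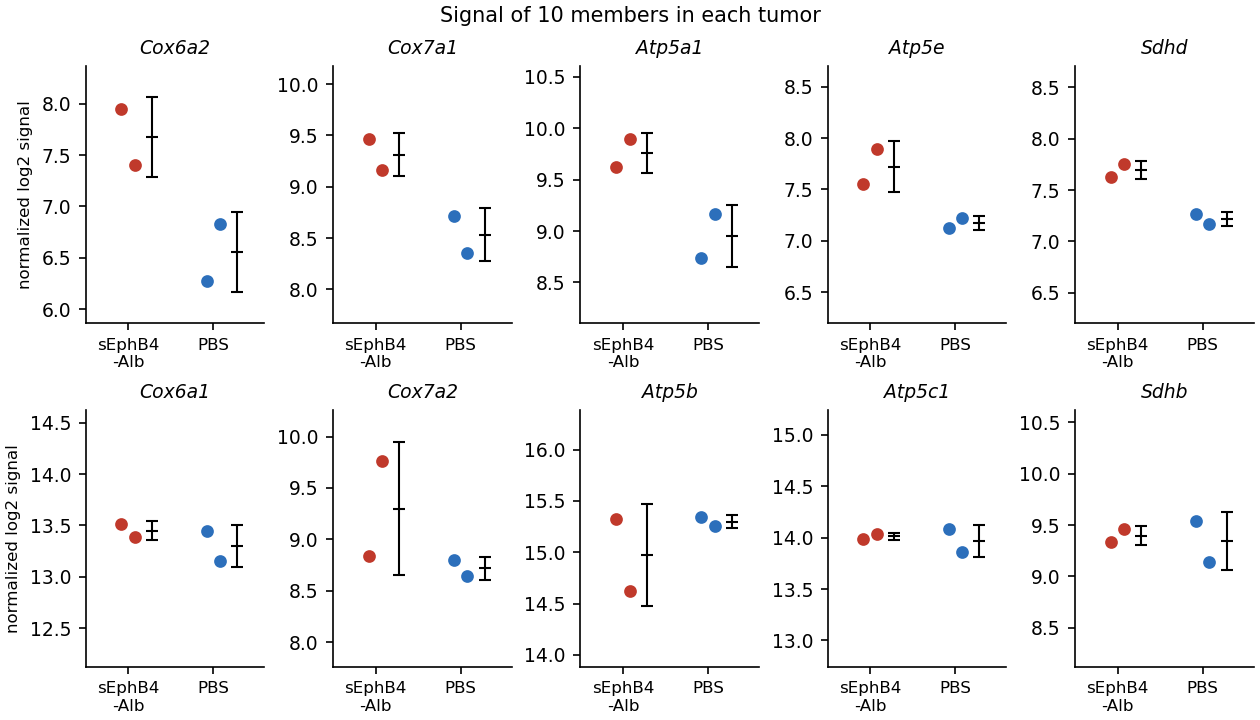
Normalized log2 level of 10 genes in each tumor, with sEphB4-Alb tumors left of PBS tumors, points for single tumors, and the group mean ± SD (n = 2) beside them. Vertical axes differ in position between genes and not in length. Cox6a2, Cox7a1, Atp5a1, Atp5e and Sdhd have separate groups with sEphB4-Alb higher, as has Cox7a2, and Cox6a1, Atp5b, Atp5c1 and Sdhb have overlapping groups.

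Complex V is built from a catalytic F1 head, a membrane part and a stalk between them. Its 13 tested genes had a median log2 fold change of 0.12 (range -0.32 to 0.81). In limma, 2 genes of the F1 head passed an unadjusted p of 0.05 higher, where 3.78% of all genes did. Atp5a1, the alpha subunit, read 9.62 and 9.90 in sEphB4-Alb tumors, against 8.74 and 9.16 in PBS tumors. Both sEphB4-Alb tumors were higher, and the log2 fold change was 0.81 ± 0.22 (SE; 95% confidence interval 0.23 to 1.39), or 1.75-fold, with an adjusted p of 0.741 in limma. Atp5e, the epsilon subunit, read 7.55 and 7.90 in sEphB4-Alb tumors and 7.13 and 7.22 in PBS tumors. Its log2 fold change was 0.55 ± 0.19 (SE; 95% confidence interval 0.05 to 1.04; adjusted p = 0.741 in limma), with groups apart. Atp5a1 no longer passed without sEphB4-Alb tumor 2, at 0.67 relative to the median gene, and Atp5e no longer passed without any 1 of the 4 tumors, at 0.35 to 0.72.

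The other 3 subunits of the F1 head gave log2 fold changes on either side of 0. Atp5b, the beta subunit that carries the catalytic site with alpha, read 15.32 and 14.62 in sEphB4-Alb tumors and 15.34 and 15.25 in PBS tumors. sEphB4-Alb tumor 2 was the lowest of the 4, the log2 fold change was -0.32 ± 0.27 (SE; 95% confidence interval -1.03 to 0.38), and without that tumor the difference relative to the median gene was 0.036. Atp5c1, the gamma subunit, was at 0.044 ± 0.17 (SE) with overlapping groups. Atp5d, the delta subunit, read 10.80 and 10.99 in sEphB4-Alb tumors and 11.13 and 11.10 in PBS tumors, a log2 fold change of -0.22 ± 0.16 (SE) with groups apart.

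Atp5g3, which encodes the proton-carrying c subunit, read 15.25 and 15.25 in sEphB4-Alb tumors and 14.93 and 14.95 in PBS tumors, a log2 fold change of 0.31 ± 0.15 (SE). Its groups were apart, whereas those of Atp5g2, which encodes the same subunit, overlapped at -0.24 ± 0.22 (SE). In the peripheral stalk, which holds the head in place, the gaps between the PBS tumors were wide. Atp5o read 9.32 and 9.45 in sEphB4-Alb tumors and 10.04 and 8.49 in PBS tumors. Atp5f1 read 10.59 and 10.05 in sEphB4-Alb tumors and 10.84 and 9.41 in PBS tumors. In both genes the sEphB4-Alb tumors lay between the PBS tumors. PBS tumor 1 exceeded PBS tumor 2 by 1.55 for Atp5o, 1.43 for Atp5f1 and 0.69 for Atp5j, another stalk subunit, and by 0.68 for the membrane subunit Atp5l. In all, 10 of 71 genes had PBS tumors more than 0.5 apart, against 2756 of 10626 genes.

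**Figure D3:**
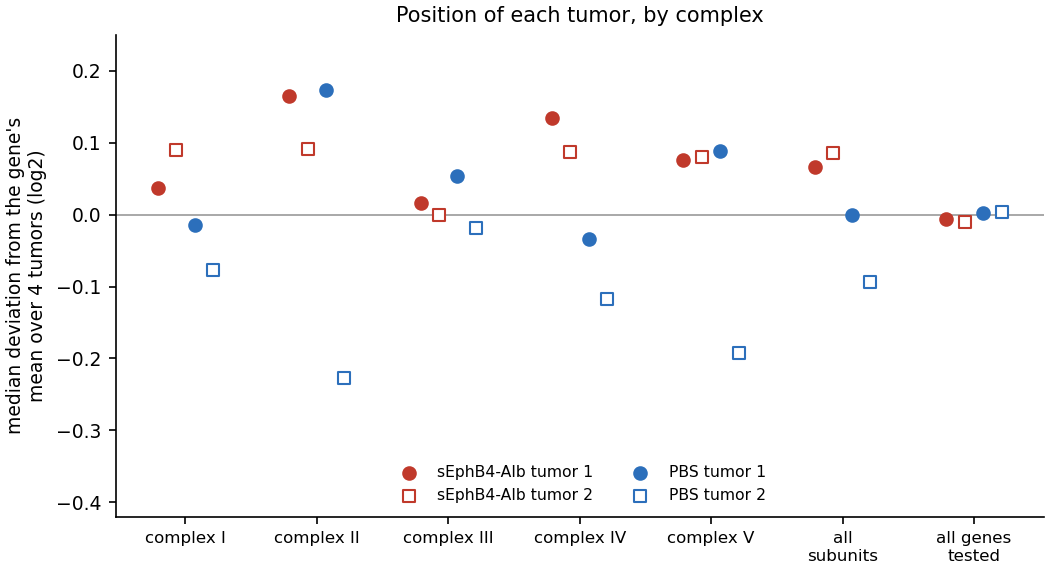
Median deviation of each complex's genes in each tumor from the gene's mean over the 4 tumors, on the log2 scale, with sEphB4-Alb tumors left of PBS tumors. For complex IV the medians are 0.13 and 0.087 in sEphB4-Alb tumors and -0.034 and -0.12 in PBS tumors, and PBS tumor 2 is lowest for complex V at -0.19, where PBS tumor 1 is at 0.088. Circles are tumors numbered 1 and squares tumors numbered 2.

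Leaving out PBS tumor 2 turned the sign of the medians of complexes II, III and V relative to the median gene. They were 0.068, 0.0054 and 0.14 with all tumors and -0.12, -0.069 and -0.051 without it. Without PBS tumor 1 complex II was at 0.28 and complex V at 0.36. With any 1 tumor left out, complex I ranged over 0.079 to 0.19 and complex IV over 0.16 to 0.31, all above 0. Without normalization between arrays the medians relative to the median gene were 0.32, 0.28, 0.23 and 0.33 for complexes I to IV.

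**Figure D4:**
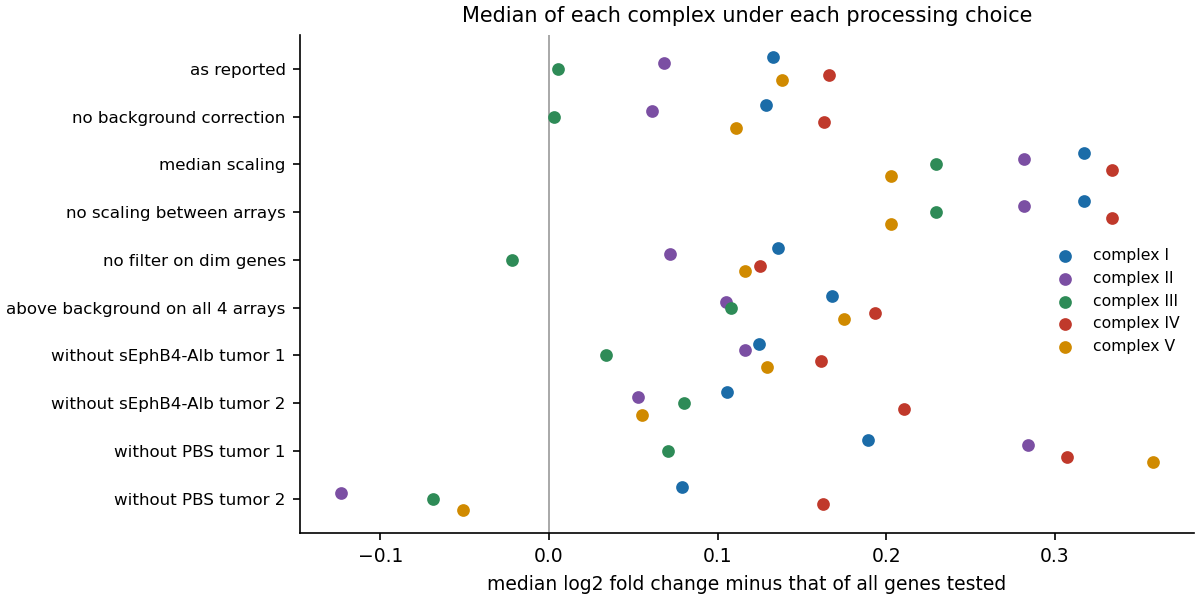
Median log2 fold change of each complex relative to the median gene tested, under quantile normalization and each alternative setting, with 1 point per setting. Complexes I and IV stay above 0 under the settings drawn, and complexes II, III and V lie on both sides of 0. Median scaling and no scaling between arrays give the same points by construction.

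The members were bright genes, with 47 of the 71 among the brightest 2657 genes tested. The median log2 fold change of those 47 was 0.072, with 33 above 0, against -0.026 over those 2657 genes. Among the next 2656 genes, the 13 members had a median of 0.20, against -0.044 over all. Among the 2656 genes below these, the 7 members had 0.48, against -0.048. Cox6a2 and Cox7b, at 1.12 and 0.54, were among these 7 and passed the filter through the sEphB4-Alb arrays. The 4 members among the dimmest 2657 genes had a median of 0.021, against 0.031 over all. The members of middle brightness thus had larger median differences than the brightest ones, but the 0.48 rests on few genes and is partly fixed by the filter.

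**Figure D5:**
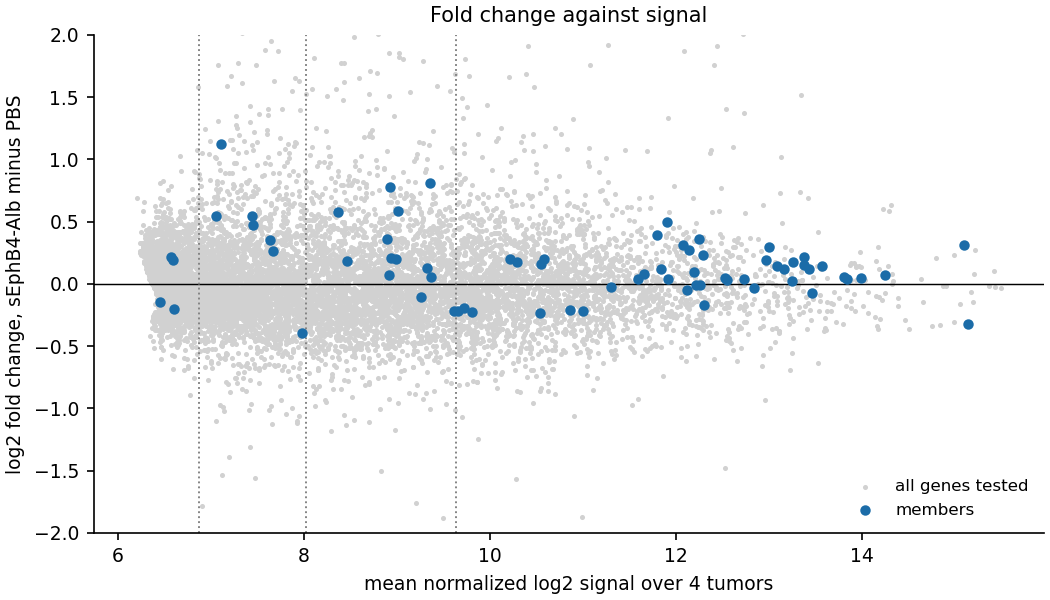
Log2 fold change, sEphB4-Alb minus PBS, against the mean normalized log2 level over the 4 tumors, with all tested genes in grey and the oxidative phosphorylation genes in colour. The members lie mostly at the bright end near 0, and 35 genes beyond 2 on the vertical axis are not drawn.

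The genes around the complexes gave a mixed picture. Of all genes tested, 47.8% were above 0 and 3.78% passed an unadjusted p of 0.05 higher in limma. Among 16 tested assembly factors outside the symbol rule the median log2 fold change was -0.05, with 7 above 0, and 0 passed an unadjusted p of 0.05. Of 16 genes of pyruvate dehydrogenase and the TCA cycle, 8 were above 0 and 3 passed higher, Ogdh, Idh2 and Dld. Ogdh, a subunit of the 2-oxoglutarate dehydrogenase complex, read 10.64 and 11.25 in sEphB4-Alb tumors and 9.61 and 9.91 in PBS tumors, a log2 fold change of 1.18 ± 0.27 (SE). Idh2, the mitochondrial isocitrate dehydrogenase, read 10.30 and 10.72 in sEphB4-Alb tumors and 9.59 and 9.91 in PBS tumors. Dld, the dihydrolipoamide dehydrogenase shared by both complexes, read 7.63 and 7.65 in sEphB4-Alb tumors and 7.17 and 7.19 in PBS tumors. For each of these 3 genes the groups were apart.

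Of 4 carriers and subunits outside the rule, 1 passed higher, where 3.78% of all genes did. It was Usmg5, a small subunit of ATP synthase, with 6.97 and 7.44 in sEphB4-Alb tumors and 6.65 and 6.56 in PBS tumors. Cyc1, the cytochrome c1 subunit of complex III, and Cycs, the cytochrome c to which it passes electrons, were at -0.18 and 0.11. Cyc1 lies outside the symbol rule and is not part of the complex III values above. Of 5 inner membrane carriers, porins and uncouplers tested, the phosphate carrier gene Slc25a3 passed, with 11.35 and 11.38 in sEphB4-Alb tumors and 10.90 and 10.76 in PBS tumors. Of 14 genes of other electron entry and ubiquinone synthesis, 1 passed higher, the ubiquinone synthesis gene Coq2 at a log2 fold change of 0.60. Of 9 tested regulators of mitochondrial biogenesis, 0 passed. Nrf1, whose product binds the motif above, read 9.53 and 9.82 in sEphB4-Alb tumors and 10.85 and 10.04 in PBS tumors, a log2 fold change of -0.77 ± 0.31 (SE) with groups apart. Ppargc1a, a coactivator of these genes, and Tfam, which acts on mitochondrial DNA, were at 0.42 and 0.0024 with overlapping groups.

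Beside the muscle isoforms Cox6a2 and Cox7a1, 10 striated muscle markers had a summed level of 9.68 and 9.67 in sEphB4-Alb tumors and 9.48 and 9.62 in PBS tumors. Ckm, Myh4, Myh7, Tnnt3, Tnnc2 and Actc1, which define striated muscle, were above background on no array. Of the other 4, Tnni2 was above background on both sEphB4-Alb arrays and 0 PBS arrays, Acta1 on both sEphB4-Alb arrays and 1 PBS array, Mb on 1 PBS array, and Mylpf on all 4. Mylpf had a log2 fold change of -0.15 and Acta1 one of 0.43, both with overlapping groups. The adipocyte markers, which bear on Cox7a1, had a summed level of 13.53 and 13.54 in sEphB4-Alb tumors and 12.70 and 14.21 in PBS tumors. Lpl alone read 13.32 and 13.43 in sEphB4-Alb tumors and 12.56 and 14.13 in PBS tumors. Fabp4 and Plin were above background on no array, and Adipoq, Lpl and Cidea on all 4. These 3 had log2 fold changes of -0.060, 0.028 and 1.21 with overlapping groups.

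Ndufa1, Ndufb11 and Cox7b lie on the X chromosome, with log2 fold changes of 0.29, 0.19 and 0.54. Ndufb11 and Cox7b passed the filter through the sEphB4-Alb arrays, which leaves Ndufa1 above background on all 4. Xist, expressed from the inactive X chromosome of females, read 8.27 and 9.24 in sEphB4-Alb tumors and 6.46 and 6.24 in PBS tumors, and was above background on the sEphB4-Alb arrays and not on the PBS arrays. The Y-linked gene Ddx3y read 6.47 and 7.20 in sEphB4-Alb tumors and 8.92 and 9.49 in PBS tumors, and was above background on all 4 arrays. Xist and Ddx3y thus differed in opposite directions, both with groups apart, and the sex of the mice behind each tumor was not tested. The study describes the mice whose tumor volumes it gives for these treatments as male. Sex-linked expression followed the treatment groups on these 4 arrays, so sex and treatment cannot be told apart in any comparison made here.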

How the data were processed

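Illumina MouseRef-8 arrays of 4 tumors were used. The deposited values are linear signal intensities for each gene symbol, and the authors had not subtracted background or scaled them. Their software is not given in the sources used here. Another 8 columns, which hold signals and detection p-values under names that match no single sample, were not used. Background correction used normexp (offset 50), followed by quantile normalization and log2. The groups were compared in R 4.3.3 with limma 3.58.1 (lmFit, eBayes), which left 2 residual degrees of freedom. Benjamini-Hochberg adjustment ran over 10626 genes. A signal was above background where it exceeded the array's mode by 1.645 times the spread below the mode. The limit was set after seeing the data. Alternatives were other scalings, filters, models and fold thresholds, and each array left out. Named genes were members past an unadjusted p of 0.05, the 3 largest changes of each complex, the Sdh genes and the paired Cox isoforms. Other genes, and the roles within complexes, were chosen after their values were seen. The members and lists were chosen with earlier results of these data known. The steps were tested on simulated data. The number of arrays limits the precision. Promoters were matched to RefSeq on GRCm38.p6, 72 of 77 members by symbol and 5 by synonym. Figures were drawn with matplotlib 3.10.9.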

Additional observations from a re-analysis of the deposited data

How the results depend on the processing

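With 2 tumors per group the scaling and single tumors decided most counts. At an unadjusted p under 0.05, 5 members were higher and 0 lower. Higher members numbered 17 with median scaling and 37 with no normalization, and ranged over 2 to 9 with 1 tumor left out. Lower members numbered 1 without the filter on dim genes, where 542 of 18091 genes were lower, and ranged over 0 to 5 with 1 tumor left out. The 5 arose without PBS tumor 2, where 1371 of 10921 genes were lower. With 1.5-fold in place of 2-fold, 3 members passed in place of 1, and 408 of all genes in place of 124. Members with groups apart and higher, 28, numbered 59 with median scaling and 66 without normalization, where 3904 and 7824 of all genes were apart and higher, and 33 to 47 with 1 tumor left out. Those apart and lower, 6, numbered 2 with median scaling and 0 without normalization, where 723 and 51 of all genes were, and 8 to 23 with 1 tumor left out. The 23 of 72 arose without PBS tumor 2, where 4771 of 10921 genes were apart and lower. With a lone tumor in a group, groups are apart more easily, and the lone tumor is assumed to vary like the others.

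Relative to the median gene, the members' median of 0.14 was 0.31 both with median scaling and without normalization, and 0.048 to 0.23 with 1 tumor left out. For complex I, 0.13, it was 0.32 in both settings, and 0.079 to 0.19. For complex II, 0.068, it was 0.28 in both, and -0.12 to 0.28. For complex III, 0.0054, it was 0.23 in both, 0.11 with genes above background on all 4 arrays, and -0.069 to 0.080. For complex IV, 0.17, it was 0.33 in both, and 0.16 to 0.31. For complex V, 0.14, it was -0.051 to 0.36. Median scaling differs from no normalization by a constant for each array, so their equal values relative to the median gene were fixed in advance.

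Signs turned for 7 named genes without a call, in values relative to the median gene. With 1 tumor left out, Atp5b ranged over -0.68 to 0.036, Cox4i2 over -0.13 to 0.27, Cox5a over -0.043 to 0.14, Cox5b over -0.045 to 0.12, Cox7a2l over -0.75 to 0.42, Sdhb over -0.12 to 0.28 and Sdhc over -0.51 to 0.053. Cox7a2l was 0.013 with median scaling and without normalization. The causes were not tested. Atp5a1, Atp5e and Sdhd also no longer passed an unadjusted p of 0.05 with median scaling or without normalization, and Atp5e and Sdhd with the replicate block. With median scaling and without normalization, p-values of named genes were taken relative to the shift of the median gene. The counts of members given above for those settings were taken without that shift, so the calls and the counts are not alike. Over all named genes and alternatives, 226 values kept direction and side of the threshold, 23 lost the threshold, these losses included, 12 gained it and 13 turned sign. The exact Mann-Whitney-Wilcoxon test, which cannot pass at 2 against 2, is not counted.

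With the replicate block, 4 members were higher and 0 lower. The numbers are shared labels only, and same-numbered tumors deviated together with a correlation of 0.04 across genes.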
